A study of Mus musculus with 8 samples.

Results

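The Nrf2 and oxidative defence genes are 10 genes, namely Nfe2l2, which encodes Nrf2 itself, and 9 genes known as its targets, Hmox1, Nqo1, Gclc, Gclm, Txnrd1, Srxn1, Gsr, Prdx1 and G6pdx. The probes were taken by name, as all array probes whose gene symbol is one of the 10, and the gene set was drawn up with earlier results of these data known. Of the 10 genes, 9 had a probe, 14 probes in all among the 25697 of the array. Gsr had no probe under its symbol and was not analysed here. A probe counted as detected, and was tested, where any of the 8 arrays gave it a detection p-value below 0.01. This held for 9 probes of 7 genes, and all 9 were detected on every array. The 7 genes stand among 8727 gene symbols tested.

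The cells were primary smooth muscle cells grown from explants of mouse aorta (AoSMCs), and strain, sex and age are not given in the sources used here. Cells in the moR-21 group were transfected with a mimetic of moR-21, a short RNA cut from the primary transcript of miR-21 right next to the mature miR-21, and cells in the control group received a scrambled oligonucleotide, both at 5 nM with the lipid RNAiMAX. Total RNA was collected 48 h later from 3 samples of each group and hybridized to Illumina mouse BeadChips, with control sample 1 and moR-21 sample 3 each on a pair of arrays (A and B) that were averaged. Whether the 3 samples of a group were separate preparations of cells is not stated. The p-values set the difference between groups against the spread of these samples, which may be technical. The limma fit draws that spread toward the one typical of all tested probes. The moR-21 RNA itself was not read by the probes used here.

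Nrf2 is a transcription factor that the adaptor Keap1 holds in the cytoplasm and hands to an ubiquitin ligase for destruction. When oxidants or electrophiles modify Keap1, Nrf2 escapes, enters the nucleus, pairs with a small Maf protein and binds antioxidant response elements in DNA. Its target genes make and recycle glutathione and thioredoxin, supply NADPH, break down haem and reduce quinones. In the vessel wall these genes are known for limiting oxidant damage. Much of the control of Nrf2 acts on the protein, which an mRNA array does not measure, and the mRNA of its targets is the usual readout of its activity.

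The RefSeq record of the mouse Mir21a hairpin (GRCm38.p6, chr11:86584142-86584158, minus strand) holds 17 bases before mature miR-21a-5p, part of the stretch that moR-21 is cut from. They are shown because the mimetic defines the moR-21 group. The exact ends of the mimetic are not given in the text used here. Capitals mark the bases that the study describes as shared by its candidate seeds. The positions of those seeds in moR-21 place its first base before this record, so positions counted here are not those of moR-21.
Mir21a 5′ flank: uGUACCaccuugucgga

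The antioxidant response element is the DNA site bound by Nrf2, after which this gene group is named. The letters TGACNNNGC were searched on both strands of the RefSeq windows (GRCm38.p6) that run from 250 bases before a gene's start to 50 after it. Windows were held for 7 of the 10 genes and not for Hmox1, Gclc and Gsr. The letters were found in 6 of these 7 genes, all but Nqo1, while 14% of all 27025 genes with a window, and 12.4% of all 32851 windows, hold them. This describes the sequence and shows neither binding nor its absence, and known elements further upstream lie outside the windows. The matches are shown in 30 bases each, in the direction of the gene, with the matching letters in capitals; all but that of Nfe2l2 read on the opposite strand.
Nfe2l2 (chr2:75704884-75704913, minus strand): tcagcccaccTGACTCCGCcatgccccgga
Gclm (chr3:122245413-122245442, plus strand): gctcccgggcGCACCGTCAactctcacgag
Txnrd1 (chr10:82859104-82859133, plus strand): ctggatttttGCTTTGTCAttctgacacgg
Srxn1 (chr2:152105542-152105571, plus strand): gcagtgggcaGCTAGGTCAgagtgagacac
Prdx1 (chr4:116685456-116685485, plus strand): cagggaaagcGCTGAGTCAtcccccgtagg
G6pdx (chrX:74428918-74428947, minus strand): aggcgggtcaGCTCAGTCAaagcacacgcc
The match of Srxn1 begins 28 bases after the start, and the others lie before it, from −240 in Nfe2l2 to −57 in G6pdx. Txnrd1 has 3 windows, and 1 of them holds the letters. The match of Prdx1 also overlaps the letters TGANTCA of an AP-1 site.

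The cell labels were read against markers of other cells the culture could hold. Acta2, smooth muscle actin, had a mean log2 signal of 13.18 in control and 13.58 in moR-21 samples, Smtn, Cald1 and Tagln were detected, and Cnn1 and Myh11 were not. None of the 6 endothelial markers was detected, Pecam1 and Cdh5 included, although a label field of the samples names the cells AoECs. The summed normalized signal of the 4 detected smooth muscle markers, of 6, was from 9838 to 10181 in control samples and from 12607 to 13443 in moR-21 samples. Most of that sum is Acta2, which was called higher (log2 fold change 0.40). Tagln, at a low mean log2 signal of 6.74 in control and 6.94 in moR-21 samples, rose by 0.20 (limma adjusted p = 0.00367) and was not called. Smtn (−0.05) and Cald1 (0.00 as rounded) did not pass the test. The summed signal of the 4 fibroblast markers, all detected, was from 16388 to 17197 in control samples and from 13610 to 14607 in moR-21 samples. Most of that sum is Dcn, at a log2 fold change of −0.22. Lum was called lower (−0.56), and Col1a1 (−0.20) and Pdgfra (−0.17) were not called. All 4 were lower at a limma adjusted p under 0.05. The 3 detected macrophage markers, of 6, summed to between 1622 and 1688 in control samples and between 1465 and 1498 in moR-21 samples, with Ptprc, Emr1 and Cd68 not detected. Most of that sum is Cd14, at a log2 fold change of −0.27, while Lyz2 was called higher (0.48) and Csf1r lay at −0.01. The 2 detected mesothelial markers, of 5, summed to between 771 and 780 in control samples and between 402 and 416 in moR-21 samples, with Msln and Upk1b not detected and no probe for Wt1. Most of that sum is Upk3b, which was called lower (log2 fold change −1.24), while Krt19 differed by −0.13 (limma adjusted p = 0.115). In such bulk samples fewer cells of a type and less RNA per cell cannot be told apart, and the part of these shifts in the results on the Nrf2 genes was not tested.

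None of the Nrf2 genes was called changed after the moR-21 mimetic at the cutoffs of the study, which asked for more than 1.3-fold and for an adjusted p below 0.002. The count was 0 of 7 genes in limma with Benjamini-Hochberg adjustment over all 11651 probes tested, where 7.79% of all tested genes were called, 4.38% lower and 3.41% higher. By probe it was 0 of 9, where 6.96% of all tested probes were called. Before adjustment 3 genes had p below 0.05, Srxn1 lower and Nqo1 and G6pdx higher, against 44.6% of all tested genes, 21.1% lower and 23.4% higher. After adjustment, with no fold limit, 2 genes did, Srxn1 lower and G6pdx higher, against 36.1% of all tested genes, 17.3% lower and 18.8% higher, and against 33.8% of all tested probes. The samples of the 2 groups did not overlap in 3 genes, Srxn1 lower and Nqo1 and G6pdx higher, against 46.3% of all tested genes, 21.9% lower and 24.4% higher. Over both directions, none of these shares was above that of the array as a whole. The median log2 fold change of the 7 genes was 0.05, and that of all tested genes was 0.01. The median absolute log2 fold change was 0.08 for the 7 genes and 0.10 for all tested genes.

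**Figure D1:**
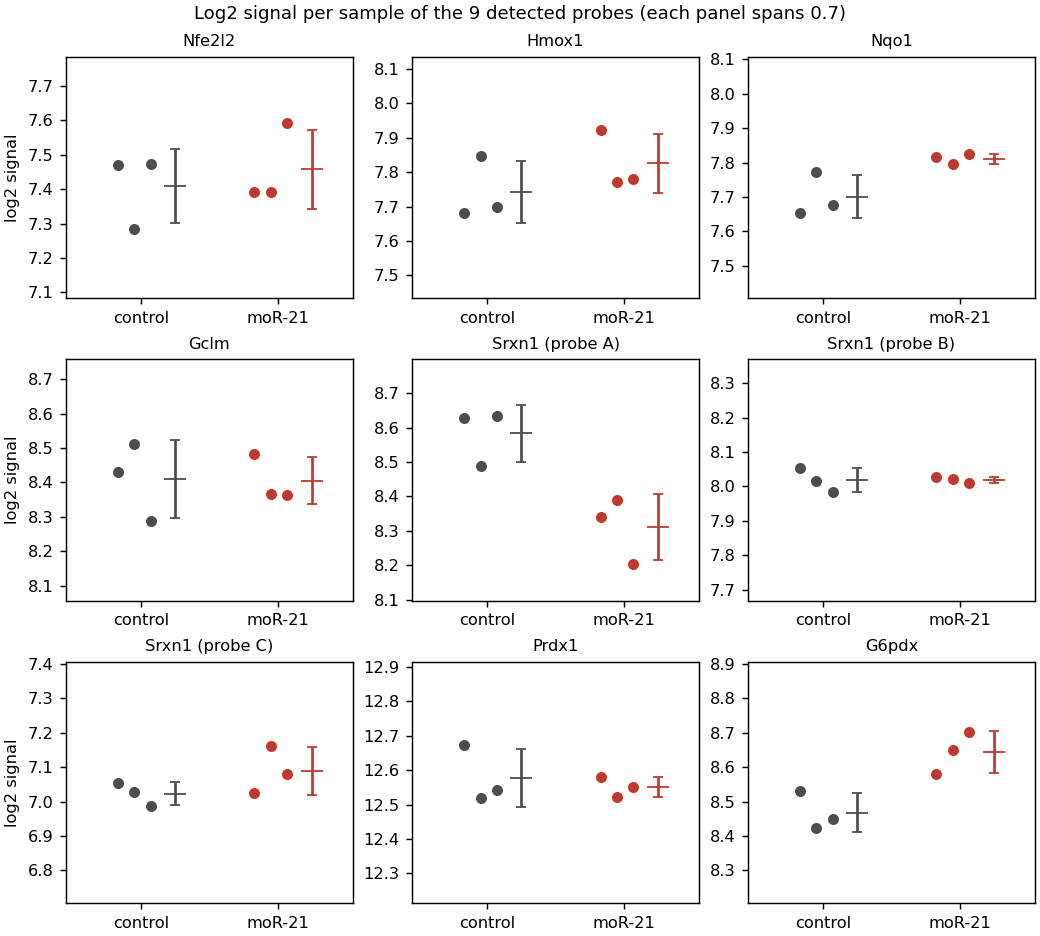
Log2 signal after quantile normalization (vertical axes, each spanning 0.7) in the 3 control and 3 moR-21 samples (points) for the 9 detected probes of the Nrf2 genes, with the mean and SD of each group beside the points. The groups separate for Nqo1, Srxn1 probe A (ILMN_2677772) and G6pdx, and overlap for the other 6 probes, among them Srxn1 probes B (ILMN_2667346) and C (ILMN_1229994).

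Nfe2l2, the gene of Nrf2, was read by probe ILMN_1224128. Its log2 signal was 7.47, 7.28 and 7.47 in control samples 1 to 3 and 7.39, 7.39 and 7.59 in moR-21 samples 1 to 3. The groups overlapped, and control sample 2 was the lowest of the 6 and moR-21 sample 3 the highest. The means were 7.41 ± 0.107 (SD, n = 3) and 7.46 ± 0.115 (SD, n = 3), a log2 fold change of 0.05 (standard error 0.065, 95% interval −0.09 to 0.19, limma adjusted p = 0.615). Without control sample 2 or without moR-21 sample 3 the sign turned, to −0.01 and −0.02. A further Nfe2l2 probe, ILMN_1214369, was not detected on any array (detection p from 0.158 to 0.798). The tested genes whose 6 sample values followed those of Nfe2l2 most closely were LOC100044170 (Pearson r = 0.97, n = 6 samples), Cbs (0.97) and Itih2 (0.96). These correlations were ranked over all tested genes on the same 6 samples and describe them only. Cbs had a mean log2 signal of 6.72 in control and 6.73 in moR-21 samples, near the 6.67 to 6.75 of the Txnrd1 probe, which was not detected. The target genes gave r from −0.64 (Gclm) to 0.58 (G6pdx) with Nfe2l2.

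Glutamate-cysteine ligase makes the limiting step of glutathione synthesis from a catalytic subunit, Gclc, and a modifier subunit, Gclm. The log2 signal of Gclm (ILMN_1256354) was 8.43, 8.51 and 8.29 in control samples and 8.48, 8.37 and 8.36 in moR-21 samples. The groups overlapped, and the moR-21 samples lay within the wider range of the control samples. The log2 fold change of Gclm was 0.00 as rounded (standard error 0.060, 95% interval −0.13 to 0.12, limma adjusted p = 0.965). Gclc (ILMN_2608016) was not detected, with intensities from 95.8 to 105 and detection p from 0.0990 to 0.497. No statement on Gclc mRNA could be made from this probe.

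Hmox1, heme oxygenase 1, breaks haem down to biliverdin, iron and carbon monoxide and is among the most inducible Nrf2 targets. Its log2 signal (ILMN_2788073) was 7.68, 7.85 and 7.70 in control samples and 7.92, 7.77 and 7.78 in moR-21 samples. Control sample 2 lay above moR-21 samples 2 and 3, so the groups overlapped. The log2 fold change of Hmox1 was 0.08 (standard error 0.058, 95% interval −0.04 to 0.21, limma adjusted p = 0.310). On arrays A and B of control sample 1 it read 7.59 and 7.78, a gap between repeat arrays of 1 sample that is wider than the difference between the treatments.

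Nqo1 encodes a quinone reductase that uses NAD(P)H, a classic readout of Nrf2 activity. Its log2 signal (ILMN_2726371) was 7.65, 7.77 and 7.68 in control samples and 7.82, 7.79 and 7.82 in moR-21 samples. All 3 moR-21 samples lay above all 3 control samples, the nearest by a small margin. The log2 fold change of Nqo1 was 0.11 (standard error 0.048, 95% interval 0.01 to 0.21, limma adjusted p = 0.0935), a fold change of 1.08 that did not pass the adjustment. Without control sample 2 it did, at 0.15 (limma adjusted p = 0.0473). The other Nqo1 probe, ILMN_2766386, was not detected.

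Thioredoxin, peroxiredoxin and sulfiredoxin form a relay that removes hydrogen peroxide. Prdx1, a cytosolic peroxiredoxin, had a log2 signal (ILMN_1223738) of 12.67, 12.52 and 12.54 in control samples and 12.58, 12.52 and 12.55 in moR-21 samples. The groups overlapped, and the log2 fold change of Prdx1 was −0.03 (standard error 0.051, 95% interval −0.14 to 0.08, limma adjusted p = 0.741). The sign turned without control sample 1 (0.02) and under median scaling (0.01). Its other probe, ILMN_2989706, was not detected. Txnrd1, the cytosolic thioredoxin reductase, was read by a single probe, ILMN_2484465, at intensities from 102 to 107, and was not detected.

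Srxn1 encodes sulfiredoxin, which restores peroxiredoxins that have been over-oxidized, and it had 3 detected probes that differed. At the brightest, ILMN_2677772, the log2 signal was 8.63, 8.49 and 8.63 in control samples and 8.34, 8.39 and 8.20 in moR-21 samples. All 3 moR-21 samples lay below all 3 control samples. The means of this probe were 8.58 ± 0.083 (SD, n = 3) and 8.31 ± 0.097 (SD, n = 3), and it fell by 0.27 on the log2 scale (standard error 0.059, 95% interval −0.40 to −0.15, limma adjusted p = 0.00247), a fold change of −1.21. This was the largest difference among the detected probes of the Nrf2 genes, short of both cutoffs of the study. At ILMN_2667346 the log2 signal was 8.05, 8.02 and 7.98 in control samples and 8.03, 8.02 and 8.01 in moR-21 samples. These values overlapped, with a log2 fold change of 0.00 as rounded (95% interval −0.09 to 0.10, limma adjusted p = 0.988). At ILMN_1229994 the values were 7.05, 7.03 and 6.99 in control samples and 7.02, 7.16 and 7.08 in moR-21 samples. They overlapped as well, with a log2 fold change of 0.07 (95% interval −0.04 to 0.17, limma adjusted p = 0.350). The intervals of both dimmer probes lie wholly above that of the brightest. With the detected probes of each gene averaged, the log2 fold change of Srxn1 was −0.07 (limma adjusted p = 0.246). The fall was seen at 1 of the 3 detected probes, and where each probe lies in the transcript was not analysed here.

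G6pdx encodes the X-linked glucose-6-phosphate dehydrogenase, which opens the pentose phosphate pathway and makes NADPH. Its log2 signal (ILMN_2721337) was 8.53, 8.42 and 8.45 in control samples and 8.58, 8.65 and 8.70 in moR-21 samples. All 3 moR-21 samples lay above all 3 control samples, by the least in moR-21 sample 1. The means were 8.47 ± 0.057 (SD, n = 3) and 8.64 ± 0.060 (SD, n = 3), and G6pdx rose by 0.18 on the log2 scale (standard error 0.050, 95% interval 0.07 to 0.28, limma adjusted p = 0.0146), a fold change of 1.13. With moR-21 sample 3 left out the difference was 0.15 (limma adjusted p = 0.0670), and with control sample 2 left out it was also 0.15 (limma adjusted p = 0.0614). On array A of control sample 1 the signal was 8.48 and on array B 8.58, the latter equal as rounded to moR-21 sample 1, and with array B alone for both samples that had a pair of arrays, in place of their averages, the limma adjusted p was 0.0604. A two-sided exact permutation test gave 0.1 for G6pdx, Nqo1 and the brightest Srxn1 probe, the smallest p that 3 samples against 3 allow.

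**Figure D2:**
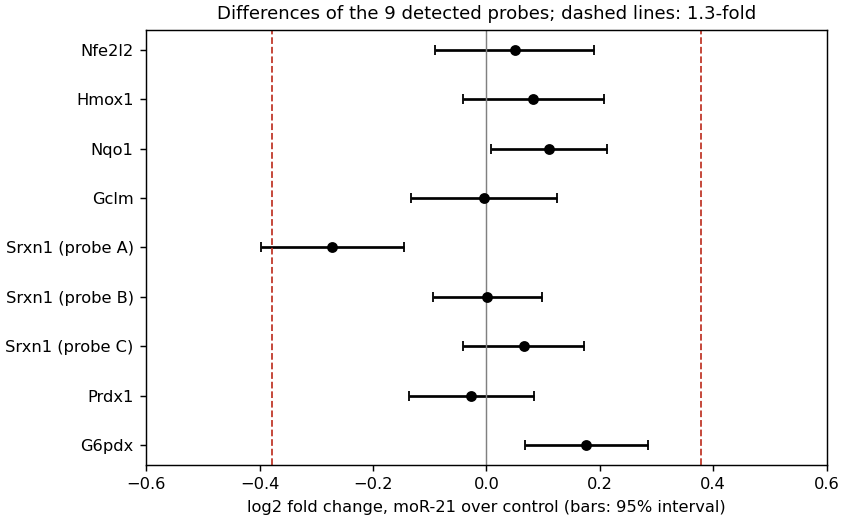
Log2 fold change, moR-21 over control, of the 9 detected probes of the Nrf2 genes (points, horizontal axis) with the 95% interval from limma (bars) and the 1.3-fold cutoff (dashed lines). Of the 9 intervals only that of Srxn1 probe A (ILMN_2677772) crosses a dashed line, at −0.40, and those of Srxn1 probes B and C lie above it.

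The intervals also bound how large a change could have gone unseen. At the brightest probe of each gene, the 95% interval lay within the 1.3-fold cutoff in 6 of the 7 genes, all but Srxn1, as it did in 83.4% of all tested genes. These bounds hold for the signal as deposited, which includes background. With normexp background correction the fold changes of these probes were wider, from −0.36 (Srxn1) to 0.23 (G6pdx) on the log2 scale, and the interval lay within the cutoff in 4 of 7 genes, without Nfe2l2, Srxn1 and G6pdx, and in 47.2% of all tested genes. For Gclc, Txnrd1 and Gsr the array gave no such bound.

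The wider oxidative defence system was read from 8 lists with 136 genes, of which 104 were tested at the brightest probe of each. At the cutoffs of the study 13 of the 104 genes were called, 9 lower and 4 higher, a share of 12.5% beside the 7.79% of all tested genes, in lists drawn up with earlier results of these data known. Their median log2 fold change was 0.03, and that of all tested genes 0.01. The called genes were spread over 7 of the 8 lists, 1 to 3 in each. At an adjusted p under 0.05 with no fold limit, 19 of the 104 were lower and 25 higher. Of all tested genes 17.3% were lower and 18.8% higher by this rule. By list, lower and higher numbered 2 and 1 (partners and regulators), 5 and 4 (glutathione), 1 and 3 (thioredoxin) and 2 and 3 (NADPH). In the rest they numbered 1 and 4 (superoxide), 4 and 3 (haem and iron), 3 and 4 (quinone) and 1 and 3 (oxidant sources).

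**Figure D3:**
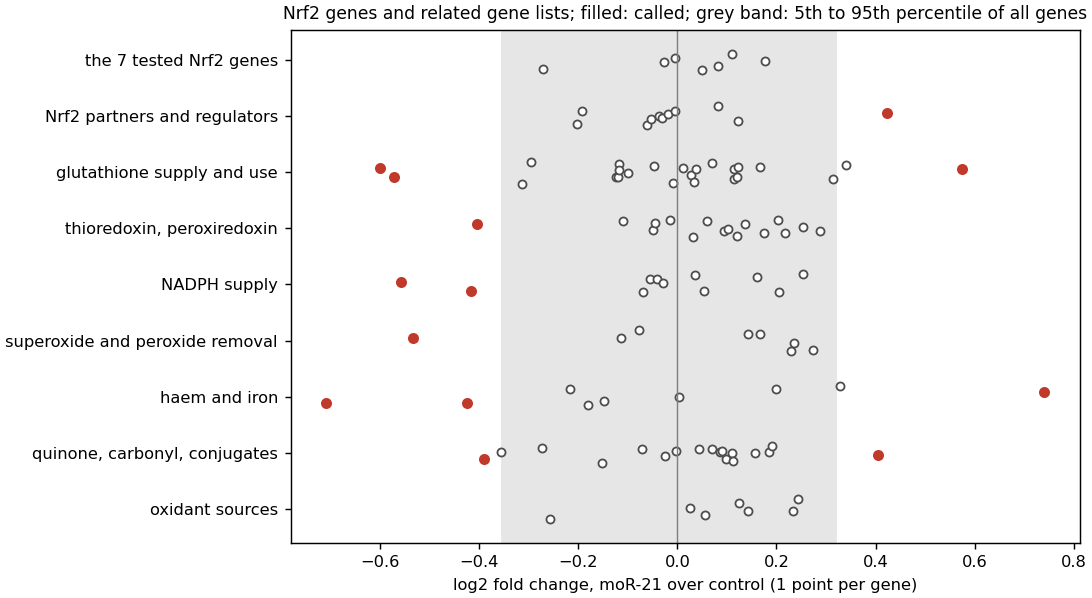
Log2 fold change, moR-21 over control (horizontal axis), of the 7 tested Nrf2 genes and of the tested genes of the 8 related lists, 1 point per gene at its brightest probe, jittered vertically, with filled points for genes called at the cutoffs of the study. The grey band runs from −0.35 to 0.32, the 5th to the 95th percentile of all 8727 genes. The 7 Nrf2 genes lie within the band, which by its definition holds most genes. The filled points, from −0.71 (Slc40a1) to 0.74 (Tfrc), lie outside it by definition, since the 1.3-fold cutoff is 0.38 on this scale.

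In what follows, a rise, fall or difference is on the log2 scale at the brightest probe unless another is named. Among the partners and regulators of Nrf2, 11 of 14 genes were tested, and limma called 0 lower and 1 higher. Keap1, the adaptor that holds Nrf2, gave 8.99, 8.92 and 8.75 in control samples and 8.92, 8.99 and 8.99 in moR-21 samples at its brightest probe. The groups overlapped, at 0.08 on the log2 scale (limma adjusted p = 0.332), and its 3 dimmer probes lay between −0.13 and 0.00 with none called. Bach1, the repressor that competes with Nrf2 for its sites, differed by −0.03 (limma adjusted p = 0.734), and Mafg, a small Maf partner, by 0.00 as rounded (limma adjusted p = 0.958), on the log2 scale. Rbx1, the RING subunit of cullin ligases, rose by 0.42 (limma adjusted p = 2.31e-05) at its brightest probe, with every moR-21 sample at 11.11 or above and every control sample at 10.81 or below. Its dimmer probe differed by −0.04 (limma adjusted p = 0.588), and it was not called with the mean of its probes (0.19) or with normexp (limma adjusted p = 0.00258). Nfe2l1, the relative of Nrf2 that drives proteasome genes, fell by 0.20 (limma adjusted p = 0.00377) without reaching the cutoffs.

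Of the genes of glutathione supply and use, 24 of 29 were tested, and 2 were called lower and 1 higher. Gpx8, a glutathione peroxidase of the endoplasmic reticulum, read 10.92, 10.88 and 10.95 in control samples and 10.30, 10.45 and 10.28 in moR-21 samples. It fell by 0.57 (limma adjusted p = 1.70e-06), and its other detected probe was called too, at −0.61. Gsta3, a glutathione transferase, fell by 0.60 at its brightest probe (limma adjusted p = 4.38e-07), while a dimmer probe (−0.07) and the mean of its probes (−0.33) were not called, and probes of this family can share near-identical sequence. Glrx, glutaredoxin, which strips glutathione from proteins, rose by 0.58 (limma adjusted p = 1.32e-06), from 10.26 ± 0.030 to 10.84 ± 0.084 (SD, n = 3 each). Gss, which completes glutathione after the Gclc and Gclm step, differed by 0.03 (limma adjusted p = 0.623), and the cystine carrier gene Slc7a11 was not detected.

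Of the thioredoxin, peroxiredoxin and methionine sulfoxide reduction genes, 16 of 20 were tested, with 1 called lower and 0 higher, and 1 lower and 3 higher at an adjusted p under 0.05. Sesn1, a sestrin and p53 target, fell by 0.41 at its brightest probe (limma adjusted p = 6.85e-05). It was called in 13 of the 18 alternative settings, and not without control sample 1 (−0.34), with array A alone (−0.37), with the mean of its probes (−0.29), with normexp (limma adjusted p = 0.00346) or with median scaling (limma adjusted p = 0.00241). Its dimmer probe was not called (−0.17). Prdx4, the peroxiredoxin of the endoplasmic reticulum, rose by 0.29 (limma adjusted p = 8.27e-04) at an adjusted p under 0.05, under the fold cutoff. Its signal was 12.04, 12.03 and 12.19 in control samples and 12.41, 12.37 and 12.33 in moR-21 samples, so the groups did not overlap.

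Of the NADPH genes beside G6pdx, 11 of 14 were tested, and 2 were called lower and 0 higher. Rpia, ribose-5-phosphate isomerase of the pentose phosphate pathway, read 8.27, 8.14 and 8.12 in control samples and 7.72, 7.54 and 7.61 in moR-21 samples. It fell by 0.56 (limma adjusted p = 5.35e-06). H6pd, which makes NADPH inside the endoplasmic reticulum, fell by 0.42 (limma adjusted p = 1.31e-05). For Pgd, the dehydrogenase that makes NADPH after G6pdx in the same pathway, the groups overlapped, at −0.03 on the log2 scale (limma adjusted p = 0.726). The genes higher at an adjusted p under 0.05 were Taldo1 (0.16), Me2 (0.20) and Idh1 (0.25), named here after their values were seen.

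Of the superoxide and peroxide genes, 8 of 9 were tested, with 1 called lower and 0 higher, and 1 lower and 4 higher at an adjusted p under 0.05. Sod2, the mitochondrial superoxide dismutase, which is also a known NF-kB target, read 11.37, 11.47 and 11.48 in control samples and 10.81, 10.92 and 10.99 in moR-21 samples. It fell by 0.53 (limma adjusted p = 5.49e-06) with no overlap. Ccs, the copper chaperone of Sod1, rose by 0.27 (limma adjusted p = 8.18e-04), under the fold cutoff, and Sod1 itself differed by 0.14 (limma adjusted p = 0.0707).

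The haem and iron genes held the widest changes around Hmox1. Of 11 genes 9 were tested, and 2 were called lower and 1 higher. Tfrc, the transferrin receptor that takes iron up, read 7.12, 7.10 and 7.18 in control samples and 7.84, 7.98 and 7.79 in moR-21 samples. It rose by 0.74 (limma adjusted p = 2.13e-07), a fold change of 1.67, and its dimmer probe was called too, at 0.71. Slc40a1, the iron exporter ferroportin, read 9.05, 8.78 and 8.92 in control samples and 8.25, 8.17 and 8.21 in moR-21 samples. It fell by 0.71 (limma adjusted p = 1.03e-06), a fold change of −1.63. Hmox2, the constitutive heme oxygenase beside the inducible Hmox1, fell by 0.42 (limma adjusted p = 2.37e-05), from 8.62 ± 0.090 to 8.20 ± 0.0034 (SD, n = 3 each). Fth1, ferritin heavy chain, differed by −0.15 at its brightest probe (limma adjusted p = 0.0577) and by 0.03 at a dimmer one, and Ftl1, ferritin light chain, was not detected at its probes. Under the fold cutoff, Blvrb rose by 0.33 (limma adjusted p = 1.77e-04) and Blvra by 0.20 (limma adjusted p = 0.0114). Abcb6 fell by 0.22 (limma adjusted p = 0.00257) and Fech by 0.18 (limma adjusted p = 0.0117), all named here after their values were seen.

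Of the quinone, carbonyl and conjugate genes, 18 of 23 were tested, and 1 was called lower and 1 higher. Akr1b8, an aldo-keto reductase, rose by 0.40 (limma adjusted p = 3.06e-04). It was called in 13 of the 18 alternative settings, and not without control sample 2 (0.34), without moR-21 sample 2 (0.36), with normexp (limma adjusted p = 0.00665), with median scaling (limma adjusted p = 0.00532) or with no detection filter (limma adjusted p = 0.00209). Por, the cytochrome P450 reductase, fell by 0.39 (limma adjusted p = 2.17e-05), close to the fold cutoff, and it was called in 14 of the 18 settings, and not without control sample 3, without moR-21 sample 3 or with the mean of its probes (−0.37 in each) or with array B alone (−0.38). Of the oxidant sources, 7 of 16 genes were tested, and limma called 0. With no fold limit 1 gene was lower and 3 were higher at an adjusted p below 0.05, and the same numbers before adjustment. Nox4, the main NADPH oxidase of smooth muscle, differed by 0.03 on the log2 scale (95% interval −0.10 to 0.15, limma adjusted p = 0.781). Its mean log2 signal was 6.73 in control and 6.76 in moR-21 samples, near the 6.67 to 6.75 of the undetected Txnrd1 probe. At such a signal the interval bounds little about Nox4 mRNA. Poldip2, a Nox4 partner, fell by 0.26 (limma adjusted p = 5.97e-04), and Noxo1, an organizer of another oxidase, rose by 0.24 at its brightest probe (limma adjusted p = 0.00223) with −0.01 at a dimmer one, all under the fold cutoff.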

How the data were processed

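The authors deposited 1 table of non-normalized BeadStudio intensities with a detection p-value beside each, for 25697 probes on 8 arrays. No background correction or filter is stated, the labels name MouseRef-8 v2.0 and a passage of the methods MouseWG-6 v2.0, and the submitters' processing notes name lumi. Columns were assigned to samples by name, with 0 left over. Median intensity was 102 to 109 per array and 10285 to 10512 probes per array were detected, and the number of samples limits the precision.

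Quantile normalization across the 8 arrays was followed by log2 and by averaging the arrays of each sample. limma 3.58.1 (R 4.3.3; lmFit, eBayes) then compared 3 moR-21 with 3 control samples over 11651 probes, those that any array detected at p below 0.01, with Benjamini-Hochberg adjustment and no covariate. Cutoffs were those of the study, and an adjusted p under 0.05 was a second rule. Genes were read at the brightest detected probe. The named genes are the 10 Nrf2 genes, list genes called at the cutoffs, the 2 widest changes per list at an adjusted p under 0.05, and the 3 genes most like Nfe2l2; other list genes were added for their role. Alternatives were other background corrections, scalings, detection filters, uses of the repeat arrays and of several probes, eBayes with trend, a replicate block and leaving out each sample. Members and lists were chosen with earlier results of these data known. The fit was tested on simulated data with known changes. Figures used Python 3.11.15 and matplotlib 3.10.9. No array slide or batch was named, and probe sequences and 3′UTRs were not used here.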

Additional observations from a re-analysis of the deposited data

How the results depend on the processing

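No Nrf2 gene was called at the cutoffs of the study under any of the 18 alternative settings. Over 126 refits of single genes, 109 kept their direction and their side of an adjusted p of 0.05, 6 lost the call, 2 gained it and 9 changed sign, these 9 all in Nfe2l2, Gclm and Prdx1, whose differences were near 0. The number of Nrf2 genes higher at an adjusted p under 0.05, 1 in the reported setting, was 0 with normexp background correction, median scaling and array B alone, and 2 with the 8 arrays as separate samples. Over the fits leaving out 1 sample it ran from 0 (without moR-21 sample 3) to 1, and without control sample 2 the gene was Nqo1 and not G6pdx. The number lower was 0 with the mean of the detected probes. Sign changes were those of Nfe2l2 (−0.012 without control sample 2 and −0.017 without moR-21 sample 3, in a range from −0.017 to 0.083 over the fits leaving out 1 sample), Gclm (0.014 with array A alone, 0.0054 without control sample 1, 0.047 without control sample 2, 0.015 without moR-21 sample 2 and 0.015 without moR-21 sample 3, in a range from −0.066 to 0.047) and Prdx1 (0.0091 with median scaling and 0.021 without control sample 1, in a range from −0.057 to 0.021). The cause was not tested. The called genes of the related lists, 9 lower and 4 higher, numbered 2 and 1 at a fold change over 1.5, and 2 were higher with normexp. Of the 13, 8 were called under all 18 settings. The intervals within the 1.3-fold cutoff, chosen after seeing the data, numbered 4 with normexp and otherwise between 6 and 8, the 8 being of 9 genes with no detection filter. Same-numbered samples deviated together at r = 0.19, 0.04 and 0.06, and 2 of the 6 samples correlated best with another number, the others with their own. Such values do not decide whether the numbers pair the samples. With the replicate number as a block the counts stayed at 1 lower and 1 higher Nrf2 genes, and 9 lower and 4 higher list genes. Signal near background limits what dim probes can show, and 5 of the 14 probes were not detected.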
